A study of Mus musculus with 4 samples.

Results

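The comparison set E14tg2a cells that had received Rif1 siRNA for 48 h against cells that had received control siRNA for 72 h. It rests on 1 array each, so on 2 of the 4 arrays of the series, and these were taken by their labels. The other 2 arrays, untreated cells and Rif1 siRNA at 72 h, stand beside them as further levels, and the label of the untreated array gives no time. The methods mention a repeat of the experiment, which was not analysed here. E14tg2a is an established line of mouse embryonic stem (ES) cells, and the labels name no engineered allele. All cultures grew in serum with LIF, the cytokine that keeps mouse ES cells undifferentiated, and per the methods on gelatin without feeder cells. The Rif1 siRNA was a pair of duplexes, mRif1#2 against the coding part of the mRNA and NC#1 against its 3′ end, and the control siRNA was given to the control cells only. Since the arms also differ in time after transfection, the siRNA and the harvest time cannot be told apart. With 1 array analysed per condition there is no replicate, so no difference below has a p-value, and nothing in the labels says how many cultures went into each RNA. A gene measured as lower may be lower in each cell or be present in fewer cells, which bulk RNA cannot separate.

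Rif1 is a large chromatin protein that associates with the nuclear lamina, recruits protein phosphatase 1 to delay replication of late-firing domains, and acts with 53BP1 in the choice of DNA break repair. In ES cells it is also known for holding down genes that are normally active in the embryo at the 2-cell stage (2C genes), which a small share of ES cells turns on at any time. The 2C families that lead the study's list of induced transcripts (Zscan4, Tcstv, Usp17l, Tmem92 and a set of predicted genes) were set apart here, and the genes described are the annotated ones outside them.

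The siRNA strands are shown because the depletion rests on them, with the seed, bases 2 to 8 from the 5′ end, in capitals.
mRif1#2 sense: gAAGGAGCcucuagggaaa
mRif1#2 antisense: uUUCCCUAgaggcuccuuc
NC#1 sense: gUGUUCAAccuuaaaugca
NC#1 antisense: uGCAUUUAagguugaacac
The reverse complement of each seed was looked for in the 60-base array probes, read as mRNA sense. The site of the mRif1#2 antisense strand, TAGGGAA, lay in 73 measured probes, with a median log2 difference of -0.03 and 0 probes over 2-fold lower. The site of the NC#1 antisense strand, TAAATGC, lay in 175 probes with a median of -0.04, where 3 were over 2-fold lower (1.71%, beside 1.01% of all probes) and 6 over 2-fold higher. For the sense strands medians were -0.12 over 111 probes with GCTCCTT and -0.07 over 141 probes with TTGAACA, beside -0.07 over all measured probes. Of these, 1 and 0 probes were over 2-fold lower and 2 and 7 over 2-fold higher. Over all measured probes, 2.35% were over 2-fold higher. The probes cover only a short stretch of each mRNA, so sites elsewhere in the transcripts were not seen.

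Rif1 itself was read by 1 probe (A_55_P2015964, chr2:51977508-51977567 in mm9). Its level, the signal divided by the 75th percentile of the same array, was 2.15 at 48 h of Rif1 siRNA against 5.42 with control siRNA, and 5.55 without treatment. At 72 h of Rif1 siRNA it was back at 4.15. The 48 h array was thus the lowest of the 4, and the log2 difference from control siRNA was -1.34, a 2.53-fold lower level. The labels and the targeted gene fit each other.

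The cells kept the ES cell profile. All 7 ES cell markers checked (Pou5f1, Sox2, Nanog, Zfp42, Esrrb, Utf1, Tdgf1) were well above background on every array, with a summed level of 222 at 48 h and 216 with control siRNA. Of 9 fibroblast markers, 6 were above background at 48 h and 5 with control siRNA, and Lum, Postn and Fap were dim on all 4 arrays. Their summed level was 4.49 at 48 h and 3.85 with control siRNA, mostly from Thy1. The summed level of 8 trophoblast markers was 5.22 at 48 h and 6.25 with control siRNA, a difference set by Tfap2c and Ascl2, while Cdx2, Eomes, Gata3, Hand1 and Krt7 were higher at 48 h. The sum of 8 primitive endoderm markers was 2.28 and 1.92, and that of 8 ectoderm and mesoderm markers 2.40 and 2.67. The share of probes well above background was 58.2% without treatment, 62.2% with control siRNA, 70.9% at 48 h and 73.5% at 72 h of Rif1 siRNA, so the 48 h array read more dim probes than its control. The part of this gain in the rises below was not tested.

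Of 39429 probes, 24266 passed the scanner software's test against background on each of the 2 arrays and are called measured. A difference over 2-fold is called a rise or a fall in what follows. By this rule 571 probes (2.35%) rose and 246 (1.01%) fell. Over 4-fold, 257 probes rose and 40 fell. The rises took in 24 of the 26 measured probes under the set-apart family names and 230 other probes for predicted genes or unnamed transcripts. The other 317 read annotated genes. Families of predicted or clone-named genes were set apart only by the single name that the study's list gives each. Other copies in their clusters can stand among the 230 or the 317, so this split does not part 2C families from all other genes. A gene is given by its brightest measured probe, and of 18840 genes 2.55% rose and 1.08% fell. Among the 14220 annotated genes outside the families, 261 rose (1.84%) and 126 fell (0.886%), Rif1 included.

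**Figure D1:**
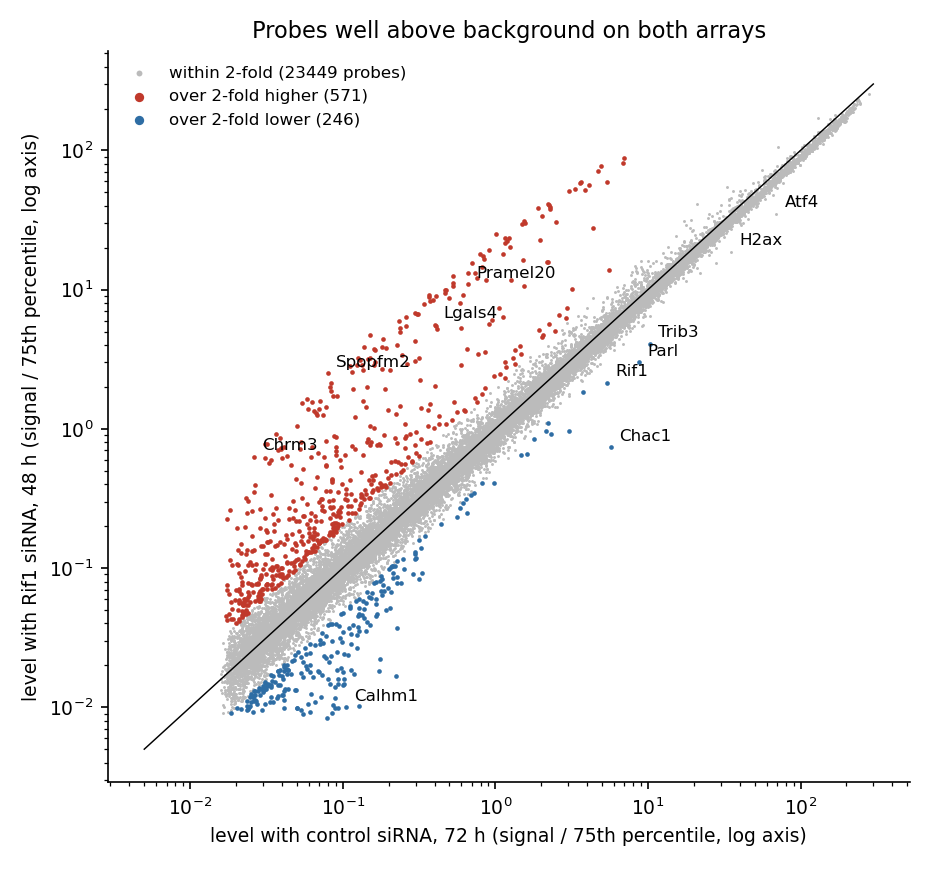
Level of each of the 24266 measured probes with control siRNA at 72 h (x axis) and with Rif1 siRNA at 48 h (y axis), both as signal over the 75th percentile of the array on log axes; the line marks equal levels. The 571 rises reach well away from the line up to high levels, and the 246 falls include Chac1, Trib3, Parl and Rif1 at high levels.

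Rising and falling probes started from like levels with control siRNA, with medians of 0.0819 and 0.0849, and stood at medians of 0.331 and 0.0216 at 48 h. Among the 9621 probes with a mean level of 1 or more over the 2 arrays, 107 rose (1.11%) and 11 fell (0.114%), though this mean holds the difference itself, which moves rises up and falls down. The arrays of control siRNA and untreated cells, which differ in transfection and may differ in time, give the only measure of spread without Rif1 siRNA. The SD of their log2 difference was 0.424 for probes under a level of 0.1, 0.234 from 0.1 to 1 and 0.126 from 1 up.

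Untreated cells served as another control. Of the 571 rising probes, 469 were measured there as well, and 391 of them (83.4%) were over 2-fold higher than in untreated cells, beside 2.08% of all 22522 probes measured on these 3 arrays. Of the 246 falling probes, 110 were not well above background in untreated cells. Among the 136 that were, 39 (28.7%) were over 2-fold lower than in untreated cells, beside 0.857% of all. In 44 of the 136, control siRNA itself was over 2-fold above untreated cells, beside 0.373% of all. Both comparisons use the 48 h array. A pair that shares no array with the main one, Rif1 siRNA at 72 h against untreated cells, was read on the 22518 probes measured on all 4 arrays, where 1.89% rose and 0.95% fell. Of the 469 rises, 325 (69.3%) rose there too and 4 fell, with a median log2 difference of 1.58. Of the 136 falls, 21 (15.4%) fell and 1, Chac1, rose, with a median of -0.19 beside -0.08 over all 22518. The rises were therefore found again in a disjoint pair of arrays more often than the falls, in shares that both exceed those over all probes.

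**Figure D2:**
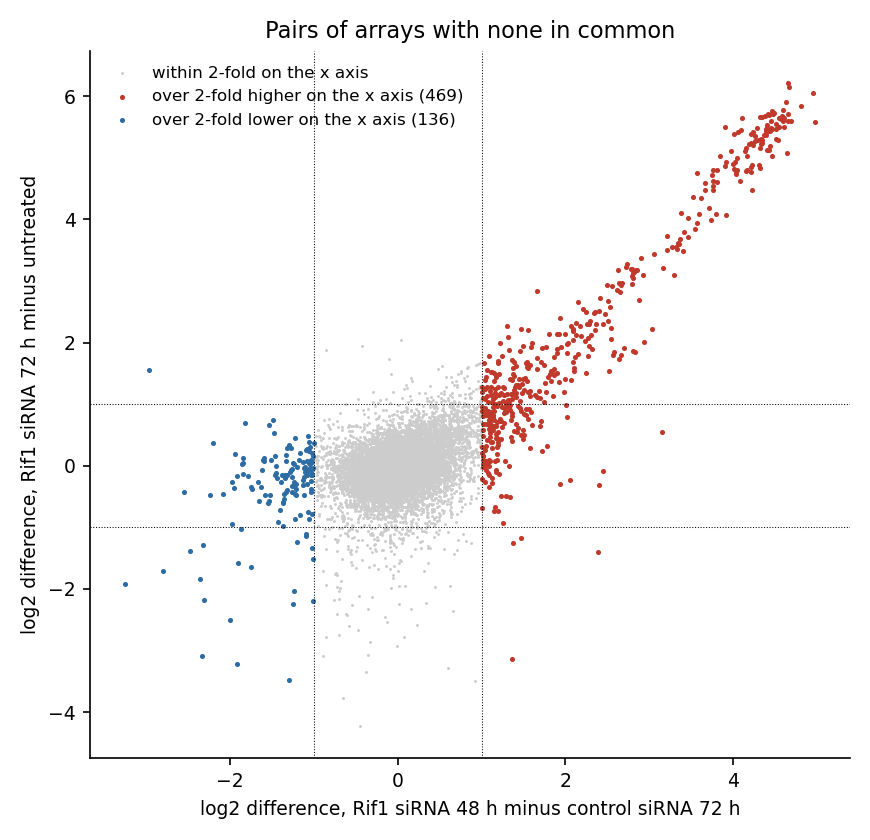
Log2 difference of Rif1 siRNA at 48 h minus control siRNA at 72 h (x axis) and of Rif1 siRNA at 72 h minus untreated cells (y axis) for the 22518 probes measured on all 4 arrays; dotted lines mark 2-fold. Most of the 469 probes that rose on the x axis lie above the upper dotted line, while most of the 136 that fell lie between the dotted lines on the y axis.

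The largest rises among annotated genes outside the families ran from 31.5-fold to 13.4-fold over 15 genes. Of these, 6 were Pramel genes (Pramel50, Pramel39, Pramel19, Pramel16, Pramel20 and Pramel31), which belong to a family of leucine-rich repeat genes with members active in oocytes and early embryos. They are named by the rule, but the array calls them by predicted or clone names, and Pramel16, Pramel20 and Pramel31 lie in the same stretch of chromosome 4 as Gm13043, one of the set-apart genes. Pramel39 and Pramel50 lie on chromosome 5, where the study's list places the set-apart Gm7682 cluster, for which no probe carries the name, so they too may belong to a set-apart family. Pramel20 was the brightest, at 0.399 without treatment, 0.667 with control siRNA and 10.9 at 48 h. Of 15 Pramel genes measured, 11 rose and 0 fell, with a median log2 difference of 2.73, beside 2.55% of all genes. Copies in such clusters are alike in sequence, so a probe may read more than 1 of them. The order below leaves out Pramel and Oog genes, a choice made after the values were seen.

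The 14 genes described next are ordered by known role, an order chosen after their values were seen that was not tested. Spopfm2, Tdpoz2 and Tdpoz7, which lie close together on chromosome 3, encode BTB-domain proteins related to Spop, an adaptor of cullin-3 ubiquitin ligases. The Spopfm2 level was 0.0524 without treatment, 0.0799 with control siRNA, 2.52 at 48 h and 2.49 at 72 h of Rif1 siRNA. That is 31.5-fold over control siRNA and the largest rise of any annotated gene outside the families. Tdpoz2 rose 19.96-fold, from 0.0310 to 0.618, and was not well above background without treatment. Tdpoz7 went from 0.0623 to 0.623. For all 3, the 48 h and 72 h arrays lay close together and far above both other arrays.

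Chrm3, the M3 muscarinic acetylcholine receptor, was at 0.0260 with control siRNA and 0.631 at 48 h, a 24.3-fold rise, and dim without treatment. Cacna1s, the pore subunit of the skeletal muscle L-type calcium channel, had levels of 0.147, 0.203, 2.66 and 2.66 in the order untreated, control siRNA, 48 h and 72 h. Olfr713, an odorant receptor, rose 14.4-fold to 0.263, and Vmn1r227, a vomeronasal receptor, 9.71-fold to 0.195. Their control levels of 0.0184 and 0.0201 lie just above 0.0159, the lowest level that counted as above background with control siRNA (its detection floor).

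Lgals4 and Lgals6, near-identical galectins that bind beta-galactosides in gut epithelium, rose together. Lgals4 was at 0.242 without treatment, 0.401 with control siRNA, 5.61 at 48 h and 5.92 at 72 h, and its other 2 probes rose 10.4-fold and 12.7-fold. Lgals6 went from 0.299 to 4.30 by a probe without an mm9 position. Genes this alike may share probes, so the rises of Lgals4 and Lgals6 may not be separate readings. Mgll, the lipase that degrades monoacylglycerols, rose 10.1-fold to 0.886, and its second measured probe rose 13.8-fold. The remaining Mgll probes were dim with control siRNA. Echdc3, an enoyl-CoA hydratase domain protein, rose 11.9-fold to 0.745, while its other probe was dim on every array. Cpb2, the plasma carboxypeptidase that slows fibrinolysis, rose 9.27-fold, Defb25, a beta-defensin, 13.4-fold, and Lmx1a, a LIM homeodomain factor of midbrain neuron precursors, 17.8-fold. In each of these 14 genes both Rif1 siRNA arrays lay above both other arrays. In 8 of them, the level without treatment was well above background.

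**Figure D3:**
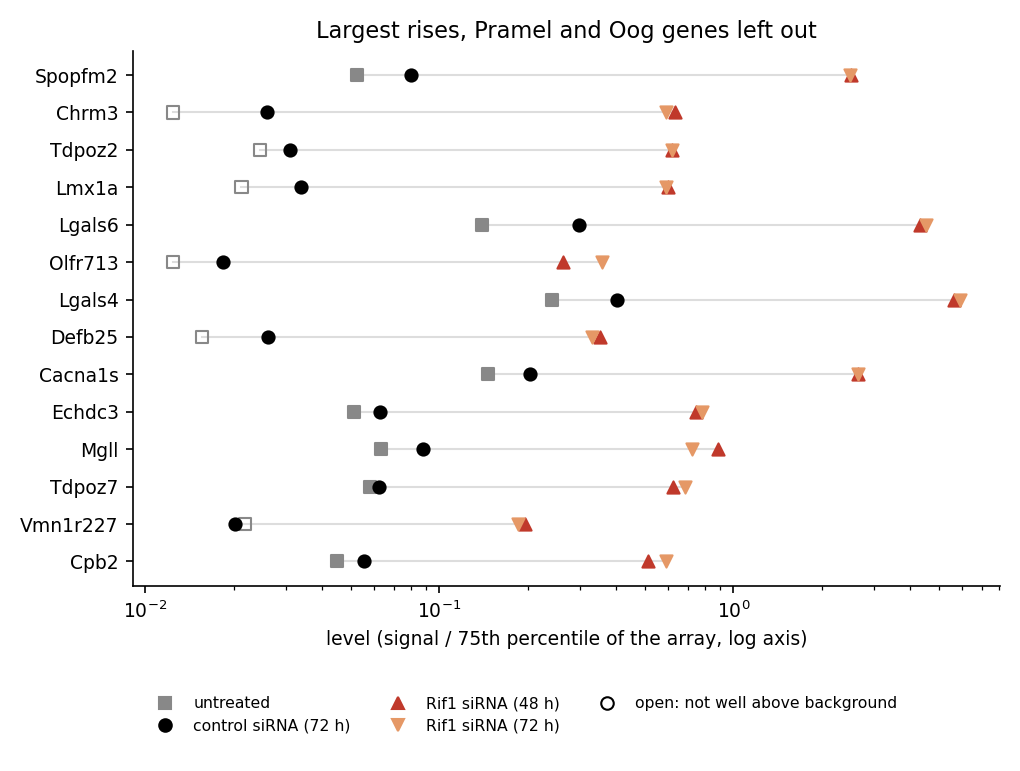
Levels of 14 of the genes with the largest rise, Pramel and Oog genes left out, on the 4 arrays (x axis, signal over the 75th percentile, log axis); open symbols were not well above background. Both Rif1 siRNA symbols lie at the right of each row, from 0.195 (Vmn1r227) to 5.61 (Lgals4) at 48 h, and the untreated and control symbols at the left.

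Among annotated genes with a mean level of 1 or more, 27 of 6402 rose and 8 fell, Rif1 not counted. The 10 largest of these rises were Pramel39, Pramel20, Lgals6, Lgals4, Arhgap17, Trp63, Crebbp, Wdr92, Git2 and Pif1. For 5 of them the probe holds a run of the triplet CAG. Crebbp, a histone acetyltransferase, had levels of 4.03, 4.35, 27.8 and 31.6 in the order untreated, control siRNA, 48 h and 72 h by this probe, while its other measured probe stayed at 0.0585 with control siRNA and 0.0677 at 48 h. Arhgap17, a GTPase-activating protein, went from 2.20 to 15.9 by the CAG probe and from 0.895 to 1.08 by the other. Trp63, a p53-family transcription factor, went from 1.53 to 10.7, and from 0.0179 to 0.0469 by its other measured probe. At 72 h of Rif1 siRNA the CAG probe was at 12.4 and that other probe at 0.0171. The remaining Trp63 probes were dim on every array. For Git2, an ARF GTPase-activating protein, and Pif1, a DNA helicase, the CAG probe was the only one, and it rose 4.76-fold and 4.46-fold. A 30-base window of each probe shows the run in capitals, with the 60-base probe's place in mm9.
Crebbp, chr16:4084710-4084769: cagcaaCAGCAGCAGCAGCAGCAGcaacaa
Arhgap17, chr7:130430339-130430398: agcaacaaCAGCAGCAGCAGCAGaccccag
Trp63, chr16:25871159-25871218: tacaggCAGCAGCAGCAGCAGCAGcaccag
Git2, chr5:115179789-115179848: aaaaacccCAGCAGCAGCAGCAGcatccgt
Pif1, chr9:65442945-65443004: tgcattCAGCAGCAGCAGCAGtaggagcag
The look at this triplet was made after the values were seen. Of 10 measured probes with 4 or more CAG in a row, 6 rose and 0 fell, beside 2.35% of all probes, but 5 of the 6 are the probes shown, which prompted the look. Of the other 5 probes, 1 rose and the median log2 difference was -0.07. At 3 or more CAG in a row, 6 of 23 probes rose and 1 fell, also with a median of -0.07. Of 5 probes with 4 or more CTG in a row, the complement, 0 rose and the median was -0.44. On the disjoint pair of arrays, 6 of the 10 CAG probes rose as well, again with the 5 probes shown among them. Of the other 5 probes, 1 rose there, beside 1.89% of all probes. These values describe probes with the repeat, and whether they follow the mRNAs of the genes they are named for was not tested.

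Other bright genes rose by probes without such a run. Wdr92, a factor in dynein arm assembly, went from 1.13 to 6.35 by its brighter probe and from 0.0336 to 0.0236 by the other. Cwc22, a splicing factor, went from 3.19 with control siRNA to 10.1 at 48 h. Ercc4, the XPF subunit of the repair nuclease XPF-ERCC1, went from 2.24 to 5.67. Ezhip, an inhibitor of Polycomb repressive complex 2, went from 1.92 to 5.13, and stood at 1.91 without treatment and 4.14 at 72 h of Rif1 siRNA. Dnajb14, a co-chaperone, Ccno, a cyclin-like factor of multiciliated cells, and Scamp1, a membrane trafficking protein, rose 2.60-fold, 2.49-fold and 2.38-fold. Apart from Wdr92, these genes were named after their values were seen.

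The X chromosome held more rises than its share. Of 517 annotated X-linked genes measured outside the families, 28 (5.42%) rose and 2 fell, beside 1.69% rises among genes placed on other chromosomes. The next highest of the chromosomes with over 100 genes measured were chromosome 3 (2.79%) and chromosome 1 (2.52%), and chromosome 19 was lowest (0.406%). Among the 28 were 6 Rhox, 3 Fthl17 and 2 Ctag2 genes, all families known from the germ line. Mageb4, a MAGE gene of the cancer-testis type, went from 0.0530 with control siRNA to 0.406 at 48 h, while of 11 Mage genes measured on all chromosomes 2 rose and the lowest stood at -0.18. Luzp4 went from 0.0470 to 0.305, and Ct55 from 0.0853 to 0.426. Fthl17d, Fthl17e and Fthl17f, bright genes, are ferritin heavy chain-like genes expressed in germ cells and early embryos. Fthl17f was at 6.34 without treatment, 5.56 with control siRNA, 13.7 at 48 h and 12.8 at 72 h, and the rises of all 3 lay between 2.47-fold and 2.54-fold. Of 17 Rhox homeobox genes measured 6 rose, Rhox13 among them (from 2.02 to 4.54), and the log2 differences of the family ran from -1.58 to 1.70. Members of these families lie in clusters of similar copies, so their probes are not separate readings. Of the 28, 22 were measured without treatment, and 15 of these were over 2-fold above it, beside 83.4% of all rising probes measured there. Against untreated cells the log2 differences of the Ctag2 genes were 0.94 and 0.84. Rhox2e (0.97) and Rhox2h (0.82) also stayed under 2-fold, and Rhox4a was lower (-1.20). Rhox2c (1.06), Rhox13 (1.12) and the 3 Fthl17 genes (1.12 to 1.18) passed 2-fold. These genes too were named after their values were seen.

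Some levels were alike on the 2 arrays labelled 72 h. Evx1, a homeobox gene of the posterior embryo, was at 0.155 without treatment and 0.185 at 48 h, and at 0.0353 and 0.0589 on the 72 h arrays of control and Rif1 siRNA. Of 22518 probes measured on 4 arrays, 3 were over 2-fold lower on both 72 h arrays than on both others, and only that of Evx1 reads an annotated gene. In the other direction 1 probe was over 2-fold higher on both 72 h arrays than on both others, that of Chac1, a gene described with the falls. Dio3, the deiodinase that inactivates thyroid hormones, had levels of 0.127, 0.0490, 0.437 and 0.187, so the 48 h array was highest and its rise over untreated cells was smaller than that over control siRNA. On both Rif1 siRNA arrays 314 probes were over 2-fold higher than on both others, and 15 were over 2-fold lower, Cibar2 and Ankrd66 among them. The cause of these patterns was not tested.

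The falls that were over 2-fold lower than in both control siRNA and untreated cells numbered 39 probes. In 26 of these the 72 h level lay between the 48 h level and the lower control, the order seen for Rif1. The 39 were chosen by a low 48 h level, which by itself favours this order. No share from a like selection stands beside the 26, so no link to Rif1 is drawn from them. Among bright genes Parl stood out. Parl encodes a rhomboid protease of the inner mitochondrial membrane that cleaves PINK1. Its level was 8.79 without treatment, 8.70 with control siRNA, 3.01 at 48 h and 5.87 at 72 h, a 2.89-fold fall. The other Parl probe, in a separate part of the gene, went from 3.05 to 0.970, a 3.14-fold fall, with 2.99 without treatment and 2.00 at 72 h. Neither probe holds a seed site of the siRNAs, and the first 30 bases of each are shown because both read the same fall.
Parl probe A_55_P2130877, chr16:20282827-20282886: aagccatcattgccatggatacagctggga
Parl probe A_52_P247943, chr16:20297676-20297735: ttttgatggcataaaagctgactggttgga
H2ax, the histone variant phosphorylated at DNA breaks, had the same order of arrays at a high level: 35 without treatment, 34.9 with control siRNA, 18.7 at 48 h and 24.9 at 72 h. At 1.86-fold it did not pass 2-fold.

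Less abundant genes shared the order of Rif1 and Parl. Hes5, a repressor downstream of Notch, was at 0.159, 0.164, 0.0551 and 0.114 in the order untreated, control siRNA, 48 h and 72 h, a 2.98-fold fall. Foxj1, the master regulator of motile cilia, went from 0.228 to 0.0780, with 0.194 without treatment. Hes3, a relative of Hes5, went from 0.228 to 0.112, a log2 difference of -1.02, or -0.85 with normexp background correction. Asphd1 fell 2.58-fold and Pcyox1l 2.41-fold, both lower than untreated cells as well, and with normexp Pcyox1l lay just under 2-fold (-0.99). Il12rb1, a subunit of the interleukin 12 receptor, fell 2.35-fold by its brighter probe and was 1.26-fold lower by its dimmer one. The genes of this paragraph and the count of 39 were picked after their values were seen.

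**Figure D4:**
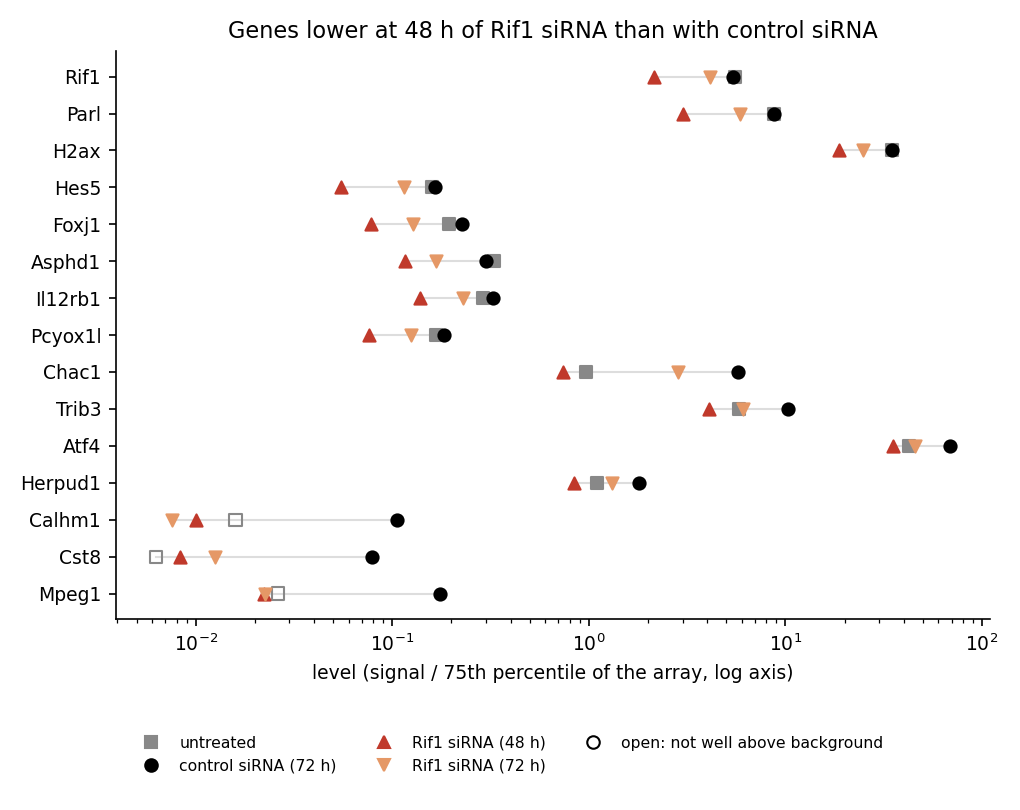
Levels of 15 genes on the 4 arrays (x axis, signal over the 75th percentile, log axis); open symbols were not well above background. In the rows from Rif1 to Pcyox1l the untreated and control symbols lie close together at the right; from Chac1 to Herpud1 control siRNA is highest and untreated cells lie near 48 h; in the last 3 rows only the control siRNA symbol is high.

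Another set fell against control siRNA but not against untreated cells. Atf4 is the transcription factor of the integrated stress response, and Chac1, which degrades glutathione, Trib3, a pseudokinase, and Herpud1, of endoplasmic reticulum protein degradation, are known targets. Chac1 was at 0.967 without treatment, 5.73 with control siRNA, 0.736 at 48 h and 2.84 at 72 h of Rif1 siRNA, a 7.79-fold fall against control siRNA and 1.32-fold against untreated cells. Its level was thus higher on both arrays labelled 72 h than on both others, and the part of the harvest time in its fall cannot be told apart from that of the siRNA. Trib3 had levels of 5.83, 10.3, 4.09 and 6.12 in the same order, and Herpud1 1.1, 1.80, 0.842 and 1.31. Atf4 itself, at 42.6, 69.2, 35.2 and 45.6, missed 2-fold by its bright probe (1.96-fold) and passed it by the dimmer one (2.24-fold). In all 4 genes the control siRNA array was the highest and the 48 h array the lowest. The other bright falls, Ankrd34a, Lzts2, Tmem121 and the 5.8S ribosomal RNA entry Rs5-8s1, also had their highest level with control siRNA.

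The 15 largest falls, from 10.5-fold for Calhm1 to 4.94-fold for Cibar2, were of another kind. In 14 of them the mean level was under 0.1, the exception being Chac1, and in 13 the control siRNA array was the highest of the 4. In 8 the untreated cells were not well above background. The detection floor of the 48 h array was 0.00779. Apart from Chac1, the 48 h levels of these genes lay near it, from 0.00832 (Cst8) to 0.0223 (Mpeg1). Calhm1, a calcium homeostasis modulator, was at 0.105 with control siRNA and at 0.0160, 0.00999 and 0.00757 on the untreated, 48 h and 72 h arrays, the untreated one dim. Cst8 (0.0787 with control siRNA and 0.00832 at 48 h), a cystatin, and Mpeg1 (0.176 and 0.0223), a macrophage perforin, behaved alike. Cavin2, Cstdc4, Gdf7, Rxfp3 and Olfr1308 too were dim without treatment and above background with control siRNA. Cibar2 (0.100 without treatment, 0.0912 with control siRNA and 0.0185 at 48 h) and Ankrd66 (0.0751, 0.0501 and 0.00995) were low on both Rif1 siRNA arrays and high on both others, while Fut1, Orly, Olfr575 and Rbpjl were also over 2-fold below untreated cells, by 2.05-fold (Rbpjl) to 4.22-fold (Fut1). Another Rbpjl probe went the other way, from a dim 0.0153 with control siRNA to 0.0502 at 48 h. Another Gdf7 probe also did, from a dim 0.0046 to 0.0098. The other Orly probe was at a dim 0.0192 with control siRNA and 0.0199 at 48 h. The other probes of Mpeg1, Olfr575 and Ankrd66 were dim on all 4 arrays. That of Rxfp3 went with the fall, from 0.0202 to a dim 0.00417.

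The 26 gene lists were examined for other programmes, and 37 of their 561 measured genes passed 2-fold, 29 higher and 8 lower. The 2C genes outside the families gave 12 of the 29: of 20 measured, 12 rose and 0 fell, with a median log2 difference of 1.23, beside 2.55% and -0.07 over all genes. These genes were listed because they are known 2C genes and some were in earlier results, so the direction is no independent evidence. Examples beside those above were Sp140, a nuclear body protein (0.199 to 1.37), Pramel7 (0.0677 to 0.45) and Fgf1, a fibroblast growth factor (0.169 to 0.769). Several were dim with control siRNA, so only bounds can be given, against 0.0159, the detection floor of that array, or against the dim probe's own level where higher. Tdpoz4 was at least 22.9-fold higher at 48 h, and Tdpoz3 at least 22.7-fold. Tdpoz1 was the lowest of the list by its measured probe, at 0.0443 with control siRNA and 0.0276 at 48 h (-0.68), while its other probe, dim with control siRNA, was at least 1.66-fold higher. Abcb5, a transporter of the multidrug resistance family, was at least 10.4-fold higher by its brighter probe at that time. Zfp352, a 2C zinc finger gene, was at 4.13 with control siRNA and 3.56 at 48 h by its bright probe, while another probe went from a dim 0.0207 to 0.344, at least 16.7-fold. Without these 2C genes, 17 of 541 list genes rose and 8 fell.

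Lists for ES cell identity and Rif1 function are too short for their counts to stand apart from the 2.55% rises and 1.08% falls over all genes. Of 30 genes of the naive pluripotency network 0 rose or fell, with a median of 0.10 and extremes at Fbxo15 (0.98, from 21.0 to 41.5) and Dppa4 (-0.31). Of 18 genes for Rif1 and its partners only Rif1 passed 2-fold, and the median was -0.12. Of 28 repressors of 2C genes and retroelements 1 rose, Zfp809, a KRAB zinc finger that silences retroviral DNA (0.374 to 1.52). Its other probe went from 0.698 to 0.743, a log2 difference of 0.09. The value of the gene was 0.08 with normexp, but the brightest probe is chosen anew there and can be the other one. The median of the list was -0.11. Of 42 DNA replication genes 0 passed 2-fold, with a median of -0.16 and the highest value at Ticrr, an origin firing factor (0.88). The medians were -0.15 over 22 cell cycle genes, -0.03 over 29 genes of p53 and checkpoints, -0.11 over 11 of DNA methylation and -0.07 over 14 of telomeres, with 0 genes past 2-fold in each. Of 12 reference genes, 0 passed 2-fold, with a median of -0.13.

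Lineage and germ line lists held mostly low-level genes past 2-fold, and their counts stand beside 2.55% rises and 1.08% falls over all genes. Of 15 trophoblast genes 1 rose, Gata3 (0.0517 to 0.186), and the median was 0.38, while Ascl2 was lowest at -0.66. Of 22 genes of the primed state and germ layers 3 rose, Gsc (1.57), Snai1 (1.41) and Snai2 (1.05), and 1 fell, Mesp1 (-1.42), with a median of 0.35, or 0.067 against untreated cells. With normexp background correction Gsc (0.65), Snai2 (0.71) and Mesp1 (-0.78) no longer passed 2-fold. Gsc and Mesp1 were dim without treatment, at levels under 0.1 on all 4 arrays. Of 18 primitive endoderm genes 1 rose, Thbd (1.43, a surface thrombin receptor, but 0.51 with normexp), and the median was 0.19 against control siRNA but -0.22 against untreated cells. Of 23 germ line and meiosis genes 2 rose, Dazl, an RNA-binding protein of germ cells (1.74), and Slc25a31, the testis ADP/ATP carrier (1.30), with a median of 0.30 and Tdrd12 lowest at -0.97. Of 16 oocyte genes 0 passed 2-fold (median 0.17, Figla highest at 0.87 and Ooep lowest at -0.36). Of 9 fibroblast genes 0 did (median 0.31, Acta2 highest at 0.98). The gain in dim probes above background on the 48 h array moves the same way as these low-level lists, and its part in them was not tested.

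Lists for stress, metabolism and signalling held few genes past 2-fold, in either direction, in counts to be set beside 2.55% rises over all genes. Of 30 genes of ATF4 and endoplasmic reticulum stress, 3 fell (Chac1, Trib3 and Herpud1) and 0 rose, beside 1.08% falls over all genes, with a median of -0.26, or -0.14 when untreated cells were the control. Dnajb9, a co-chaperone of the endoplasmic reticulum, was highest at 0.88, and its dimmer probe rose 3.63-fold. Of 33 genes of glycolysis and hypoxia, P4ha2, a collagen prolyl hydroxylase, rose (1.21) and Adm, adrenomedullin, fell (-1.07). Of 19 immediate early genes Ier3 fell (-1.12), and of 12 genes of heat shock and oxidative stress Hspa1a rose (1.08). Of 16 targets of Wnt, Nodal and BMP signals Cdx1 (1.15) and Id3 (1.03) rose. Id3, P4ha2, Hspa1a, Ier3 and Adm did not pass 2-fold against untreated cells, with log2 differences of 0.66, 0.98, 0.96, -0.77 and -0.15. Of 28 imprinted genes Magel2 (1.21) and Ndn (1.08), neighbours on chromosome 7, rose, though Ndn did not pass 2-fold with normexp (0.95). Of 46 canonical histone genes H2bc8 (1.55), Hist1h4i (1.45) and H2bc22 (1.05) rose, the first and last of them not past 2-fold with normexp (0.83 and 0.88), and H2aw fell (-1.25, but -0.72 against untreated cells), with a median of -0.21, and histone copies are alike enough that probes may be shared. Of 19 interferon genes, 22 sterol genes and 11 fatty acid genes, 0 passed 2-fold, with medians of -0.12, 0.01 and -0.01.

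**Figure D5:**
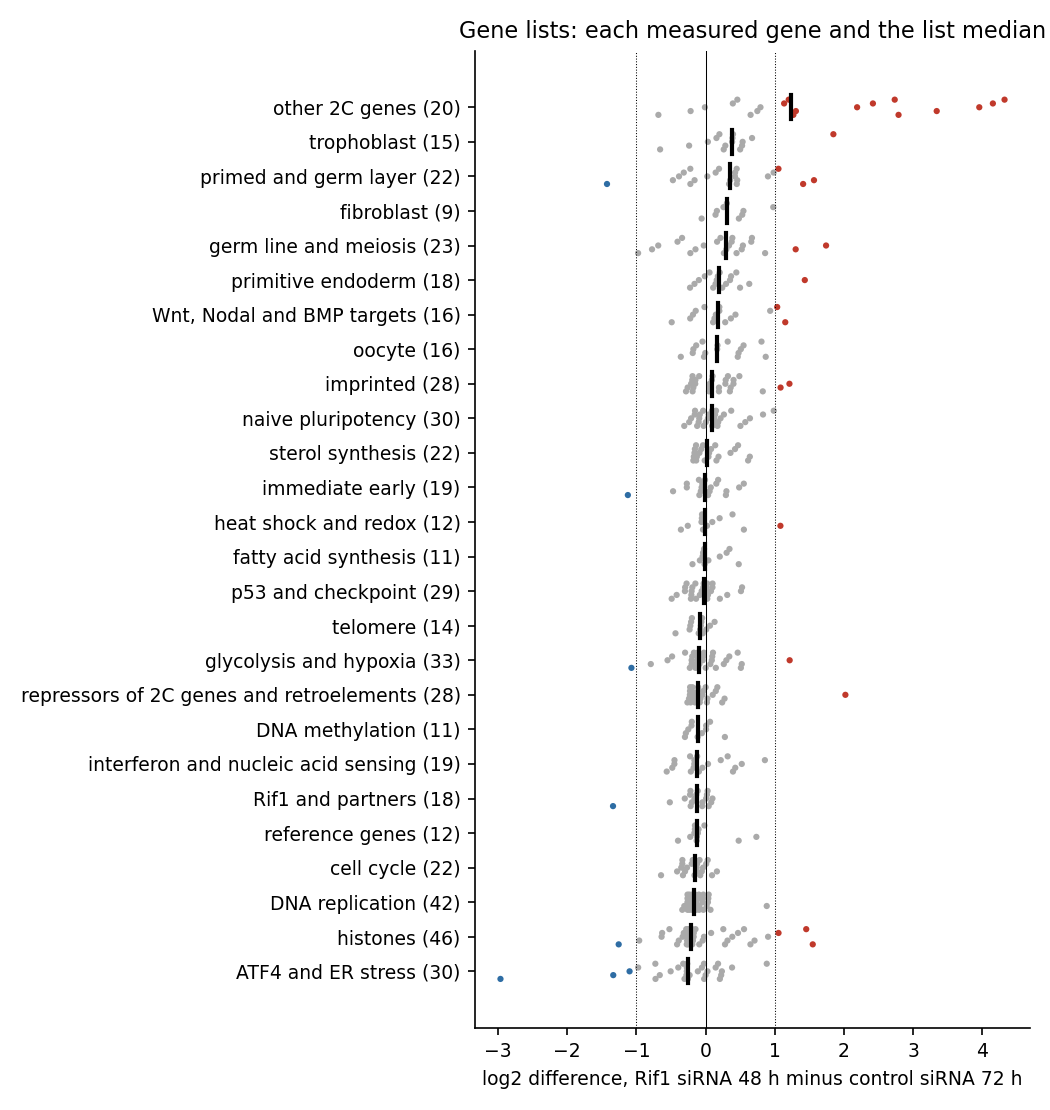
Log2 difference of Rif1 siRNA at 48 h minus control siRNA at 72 h (x axis) for each measured gene of 26 lists, sorted by the list median (black bar), with the number of genes measured; dotted lines mark 2-fold, and red and blue points lie past it. The other 2C genes stand apart with a median of 1.23, and the other medians run from -0.26 (ATF4 and endoplasmic reticulum stress) to 0.38 (trophoblast).

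Where a gene had several measured probes, they did not always agree. Of 34 annotated genes outside the families that rose by their brightest probe and had others, all other probes were higher in 28 and over 2-fold higher in 18. Of 12 such genes that fell, all other probes were lower in 7 and over 2-fold lower in 4, Parl among them. Probes of one gene read the same 2 RNAs, so they bear on the probe and not on the culture. The genes that rose had a median level of 0.0700 with control siRNA and those that fell 0.107, beside 0.764 over all 14220. A planned comparison of promoter GC content, CpG count and a sequence motif is incomplete, and no conclusion is drawn from it. The table of promoters used here held 75.5% of the rising and 73.0% of the falling genes, beside 79.0% of all 14220. In that order, median GC contents were 54.3%, 58.3% and 60.3%, and median CpG counts 9, 12.5 and 20. The motif was held by 4.06%, 2.17% and 3.52%. The cause of these differences was not tested.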

How the data were processed

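Total RNA of each condition was labelled with Cy3 and hybridised to 1 one-colour Agilent array, all on one slide. The authors deposited the output of Agilent Feature Extraction 11.5.1.1, whose processed signal is an intensity after background subtraction and detrending within the array, together with probe positions on mm9. The authors also deposited a table of ratios of this signal to the 75th percentile of its array, used here only as an alternative. The number of arrays limits the precision.

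From the 43020 non-control spots of each array, outlier-flagged spots (142 with control siRNA, 120 at 48 h) were dropped, log2 of the signal over the 75th percentile was taken and spots were averaged per probe. Probes flagged well above background on both arrays were kept, and 0 spots were saturated. Of 39429 probes, 27502 were matched to a RefSeq gene (GRCm38.p6) by accession and 3549 by symbol, and 2016 took a newer symbol.

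No test was possible with 1 array per condition, so counts past 2-fold describe the 2 arrays. Named were Rif1, the 15 largest rises and falls among annotated genes outside the 2C families, the 10 largest of each at a mean level of 1 or more, and in each gene list all genes past 2-fold and the extremes. Some genes under this rule are not reported here. The members, lists and tests were chosen with earlier results of these data known. Alternatives were quantile normalization, normexp (limma 3.58.1 in R 4.3.3, offset 50), the deposited ratios, other control arrays, filters, thresholds and summaries. Python 3.11.15, pandas 2.3.3 and numpy 2.4.6 were used, and the counting step was tested on simulated data. siRNA sequences came from the study's oligo table.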

Additional observations from a re-analysis of the deposited data

How the results depend on the processing

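No paired analysis was possible because the arrays analysed here hold every condition once. For the same reason no array could be left out. A value was held to have moved when it changed by more than 0.256 on the log2 scale, the SD of the difference between the arrays without Rif1 siRNA, and a count when it changed by over 1.5 times. The fall of Rif1 ran from -1.37 to -1.31 over 8 alternatives that keep the 48 h array, and at 72 h its log2 difference was -0.39, under 2-fold. The number of probes over 2-fold higher, 571, and the number of probes over 2-fold lower, 246, became 356 and 105 with normexp background correction, 257 and 40 at 4-fold, and 943 and 502 when probes dim on 1 array entered with a lower bound. The falls alone became 119 against the mean of both controls, 105 where a level of 0.1 was asked of 1 array, and 39 where untreated cells had to be passed too, an alternative chosen after the data were seen; the other counts stayed within 1.5 times. That limit is wide for a median over a list, so few moves say little of the stability of list medians, and the sterol genes, for one, went from 0.01 to -0.21 against untreated cells without passing it. Of 260 list medians under an alternative, 6 passed it: the other 2C genes to 0.90 with normexp and 1.58 with the 72 h array of Rif1 siRNA in place of 48 h, the primed and germ layer genes to 0.090 with normexp and 0.067 against untreated cells, and the primitive endoderm genes to -0.22 against untreated cells and -0.20 with the 72 h array. Of 92 named genes past 2-fold, 89 stayed past it in the same direction with quantile normalization, 71 with normexp, 60 of 73 measured against untreated cells, and 63 of 91 with the 72 h array, where Kcnq3 turned from -1.02 to 0.88. Beside those given with the results, normexp ended the calls of Adm, Aspa, Bicdl2, Fyb2, Hspa1a, Izumo2, Kcnq3, Lyl1, Tmem121, Trim43b and Zfp558. The causes of these shifts were not tested. Depth is set by signal over background: 3694 probes were well above background at 48 h only and 258 with control siRNA only.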
